A study of Mus musculus with 12 samples.

Results

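The Kruppel-like factor (KLF) genes described here are *Klf2*, *Klf3*, *Klf4*, *Klf5*, *Klf6*, *Klf9*, *Klf10*, *Klf11*, *Klf13* and *Klf15*. These 10 genes were taken by symbol from the 55401 gene identifiers of whole-kidney RNA-Seq tables, and each identifier matched GENCODE M21 (GRCm38) with its version. KLFs are zinc-finger transcription factors that share a DNA-binding end which recognizes GC-rich and CACCC sequences, and they differ in the other end, which recruits coactivators or corepressors. *Klf2*, *Klf4*, *Klf5* and *Klf6* encode the group known mainly as activators, *Klf3* encodes a repressor that binds CtBP, and *Klf9*, *Klf10*, *Klf11* and *Klf13* encode the group that binds the corepressor Sin3A. *Klf15* lies outside these groups and is known for control of amino acid and glucose metabolism and for high expression in kidney. In kidney, KLF2 and KLF4 are best known in the endothelium, KLF4, KLF6 and KLF15 also in podocytes, and KLF5 in the collecting duct.

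Whole kidneys came from 12 male C57BL6 mice aged 8 weeks, and no engineered allele is named for either group. In the SK-124 group, 6 mice were injected intraperitoneally with 40 mg/kg SK-124, and in the vehicle group, 6 mice were injected with the carrier alone, 15% hydroxypropyl-cyclodextrin in water. SK-124 is a small-molecule inhibitor of the salt-inducible kinases SIK2 and SIK3, which hold CRTC coactivators of CREB and class IIa histone deacetylases in the cytoplasm and which parathyroid hormone signaling inactivates. The sources used here give no time between injection and collection for these libraries. A whole kidney mixes all its cell types, so fewer cells of a type and less RNA per cell cannot be told apart.

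Expected counts summed to between 19244227 and 19771802 per mouse. Of 14159 genes tested with edgeR's quasi-likelihood test, 1536 were higher and 1917 lower in SK-124-treated mice at a Benjamini-Hochberg adjusted p (FDR) under 0.05. Of these called genes 44.5% were higher, against 20.3% when libraries were scaled by their totals only, which moved the median log2 fold change of all tested genes from -0.01 to -0.12. The 10 genes with the most counts took 39.9% to 43.2% of counts in vehicle-treated mice, 44.4% to 46.8% in SK-124-treated mice 1 to 3 and 38.6% to 40.2% in SK-124-treated mice 4 to 6. All 6 proximal tubule markers were tested. Their summed level was 2383 to 2878 TPM (transcripts scaled to gene length and to a fixed total) in vehicle-treated and 1970 to 2457 TPM in SK-124-treated mice. None was called by edgeR, with 0 also at an unadjusted p under 0.05, and 0 by DESeq2. By limma on log2(TPM + 1), 1 was lower, and 3 were lower at an unadjusted p under 0.05. On that scale the median log2 fold change of all tested genes was -0.11. The adrenal cortex markers summed to at most 0.62 TPM, with *Cyp11b2* at 0 in every mouse, and the fat markers to between 14.0 and 50.3 TPM. Of the markers tested for the thick ascending limb (2), the distal convoluted tubule (2) and erythroid cells (4), 0 were called by edgeR or DESeq2, with 1 thick ascending limb marker higher at an unadjusted p under 0.05. Of 6 stromal and smooth muscle markers 2 were higher and 2 lower, and of 6 immune markers tested 2 were lower and 0 higher by edgeR (1 at an unadjusted p under 0.05, 1 by DESeq2). Under 23 alternative settings, 0 to 2 stromal and smooth muscle markers were higher and 1 to 3 lower. For the immune markers, 0 to 1 were higher and 1 to 4 lower under these settings.

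SK-124 treatment was accompanied by higher mRNA levels of 8 of the 10 KLF genes (*Klf15*, *Klf6*, *Klf9*, *Klf2*, *Klf5*, *Klf11*, *Klf13* and *Klf4*), spread over the activator group (4 of 4 genes), the Sin3A-binding group (3 of 4 genes) and *Klf15*. Of the 10, 0 were lower by edgeR (0 also at an unadjusted p under 0.05, 0 by DESeq2 and 0 by limma on TPM), and *Klf10* and *Klf3* did not pass the test. Across all tested genes, 10.8% were called higher and 13.5% lower by edgeR. By limma on log2(TPM + 1), 6 of the 10 were higher, without *Klf4* and *Klf11*, where 500 of the 14159 tested genes were higher and 2130 lower. At an unadjusted p under 0.05, limma gave 8 of the 10 higher and 1 lower. The median log2 fold change of the 10 genes was 0.90, against -0.01 over all tested genes. The same 8 genes had no overlap between the groups in CPM (counts scaled to library size with edgeR's TMM method), where 6.32% of all tested genes had every SK-124-treated mouse above every vehicle-treated mouse. In TPM only *Klf9* and *Klf15* had no overlap, where 2.01% of all tested genes had every treated mouse above every control.

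**Figure D1:**
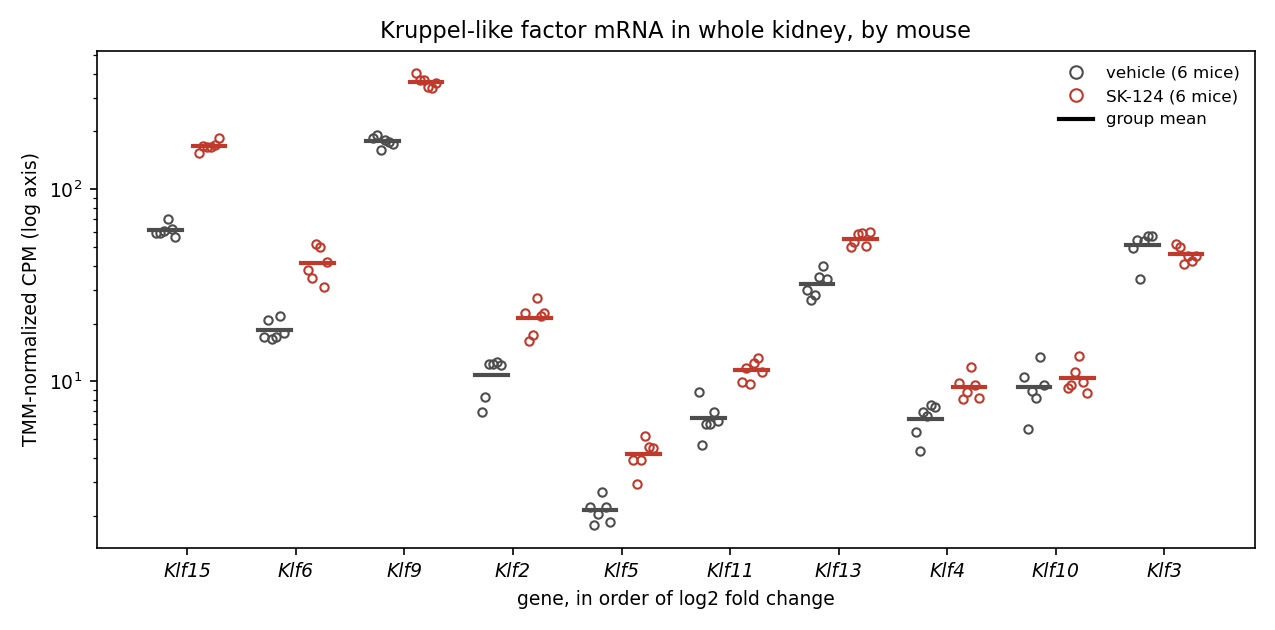
TMM-normalized CPM on a log axis for the 10 KLF genes, ordered by log2 fold change, with 1 open circle per mouse (6 per group) and a bar at each group mean. For 8 genes the SK-124 circles all lie above the vehicle circles, and for *Klf10* and *Klf3* the groups overlap.

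*Klf15* (ENSMUSG00000030087.11, chr6:90462576-90475238, plus strand) had the largest fold change of the 10 genes. CPM ranged from 56.5 to 70.2 in vehicle-treated mice, with a median of 59.9, and from 155 to 185 in SK-124-treated mice, with a median of 167. Every treated mouse lay far above the highest control mouse. Means were 61.3 ± 4.75 (SD, n = 6) and 168 ± 9.83 (SD, n = 6), which is a log2 fold change of 1.46 (SE 0.06, FDR = 1.82e-11, edgeR, quasi-likelihood test, Benjamini-Hochberg adjustment) or 2.75-fold (95% interval 2.52 to 2.998). In TPM, *Klf15* was 56.8 to 61.7 in SK-124-treated mice 1 to 3 and 70.5 to 81.7 in SK-124-treated mice 4 to 6, against 155 to 167 and 166 to 185 in CPM. The TPM values thus separated these mice, which also differed in the share of counts held by the 10 top genes, and the part of that share in the TPM values was not tested.

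*Klf9* (ENSMUSG00000033863.2, chr19:23141226-23168134, plus strand) encodes a Sin3A-binding factor known to be induced by glucocorticoid and thyroid hormones. Its CPM ranged from 160 to 192 in vehicle-treated mice, with a median of 178, and from 337 to 401 in SK-124-treated mice, with a median of 363. The log2 fold change was 1.03 (SE 0.06, FDR = 7.93e-10, same test), a 2.04-fold difference. *Klf9* and *Klf15* were the most abundant of the 10 genes and had the smallest coefficients of variation over all mice of each group. In vehicle-treated mice these were 6.13% for *Klf9* and 7.76% for *Klf15*, against 12.2% to 27.4% for the other 8 genes. In SK-124-treated mice they were 6.43% and 5.84%, against 8.34% to 20.4%. The 17.2% of *Klf3* in controls includes vehicle-treated mouse 3, at 34.1 CPM against 49.4 to 57.3 CPM in the other controls.

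The proximal promoters of *Klf15*, *Klf9* and *Klf3* are shown because *Klf15* and *Klf9* were the most abundant of the called genes and *Klf3*, next in level, was not called. Each runs 5′ to 3′ from 250 bases before to 50 bases after RefSeq's start (GRCm38.p6), and capitals mark matches, on either strand, to the core site TGACG of the cAMP response element bound by CREB (also held within the full element TGACGTCA) or to the E-box CACGTG bound by clock factors and other basic helix-loop-helix proteins.
*Klf15* (chr6:90462326-90462625, plus strand): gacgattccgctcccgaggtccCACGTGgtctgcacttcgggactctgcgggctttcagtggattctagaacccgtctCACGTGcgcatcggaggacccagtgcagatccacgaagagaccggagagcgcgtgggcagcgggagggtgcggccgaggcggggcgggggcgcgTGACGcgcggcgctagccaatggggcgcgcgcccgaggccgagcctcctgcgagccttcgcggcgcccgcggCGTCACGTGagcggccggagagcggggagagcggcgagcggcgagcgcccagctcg
*Klf9* (chr19:23140976-23141275, plus strand): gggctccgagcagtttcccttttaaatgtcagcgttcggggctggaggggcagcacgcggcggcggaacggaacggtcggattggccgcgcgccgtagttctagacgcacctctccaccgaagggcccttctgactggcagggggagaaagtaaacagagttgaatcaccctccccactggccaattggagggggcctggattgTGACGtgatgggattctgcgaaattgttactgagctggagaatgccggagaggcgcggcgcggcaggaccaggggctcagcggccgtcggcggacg
*Klf3* (chr5:64803271-64803570, plus strand): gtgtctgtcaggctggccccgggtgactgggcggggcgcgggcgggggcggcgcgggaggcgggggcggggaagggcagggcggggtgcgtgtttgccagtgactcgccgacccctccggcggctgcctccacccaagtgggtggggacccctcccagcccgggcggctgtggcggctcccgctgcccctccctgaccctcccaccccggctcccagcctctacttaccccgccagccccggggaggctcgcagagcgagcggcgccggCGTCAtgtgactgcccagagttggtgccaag

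With the start base counted as 0, the *Klf15* window held the core site at -78 and -6 and the E-box at -228, -172 and -3, and the matches at -6 and -3 overlap. In the *Klf9* window the core site began at -46, and in the *Klf3* window it began at 19. RefSeq windows matched 8 of the 10 genes, all but *Klf5* and *Klf10*. The core site was in 6 of these 8 windows (*Klf2*, *Klf3*, *Klf4*, *Klf9*, *Klf13* and *Klf15*) and in 20.8% of all 32851 windows searched, and the E-box was in 4 (*Klf4*, *Klf6*, *Klf11* and *Klf15*) and in 7.15% of all. The full cAMP response element was in 0 of the 8 and in 1.79% of all, and the palindromic glucocorticoid response element was in 0 of the 8 and in 0.00913% of all. The GC box GGGCGG was in 7 of the 8 (not *Klf9*) and in 35.7% of all, and CACCC was in 5 of the 8 and in 57.5% of all, with 6 GC boxes and 5 CACCC matches in *Klf3*. The 8 windows had a GC content of 63.0% to 77.7%, against a median of 52.7% over all windows. These matches describe letters only, since no binding was measured in these mice.

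Among the activators, *Klf6* (ENSMUSG00000000078.7, chr13:5861482-5870394, plus strand), a factor known to respond quickly to injury, had the largest fold change. CPM ranged from 16.6 to 21.9 in vehicle-treated mice, with a median of 17.5, and from 31.0 to 51.9 in SK-124-treated mice, with a median of 39.8. The treated mice varied more than the controls (SD 8.37 against 2.27), but no treated mouse reached down to the control range. The log2 fold change was 1.14 (SE 0.12, FDR = 1.61e-06, edgeR, quasi-likelihood test, Benjamini-Hochberg adjustment).

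*Klf2* (ENSMUSG00000055148.7, chr8:72319033-72321656, plus strand) encodes the flow-responsive factor of endothelial cells. Its CPM ranged from 6.91 to 12.6 in vehicle-treated mice, with a median of 12.2, and from 16.3 to 27.3 in SK-124-treated mice, with a median of 22.3. Vehicle-treated mice 1 and 2 lay below the other 4, and all 6 treated mice lay above all controls. The log2 fold change was 0.99 (SE 0.15, FDR = 8.50e-05, same test).

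*Klf4* (ENSMUSG00000003032.8, chr4:55527143-55532466, minus strand), which acts with *Klf2* in endothelium and is also known in podocytes, had the smallest fold change among the called genes. CPM ranged from 4.36 to 7.54 in vehicle-treated mice, with a median of 6.78, and from 8.12 to 11.9 in SK-124-treated mice, with a median of 9.18. The groups came close without overlapping, and the log2 fold change was 0.56 (SE 0.13, FDR = 0.00365, same test). The lowest treated TPM of 2.08 lay below the highest control TPM of 2.62, and limma on log2(TPM + 1) gave 0.30 (FDR = 0.0969).

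*Klf5* (ENSMUSG00000005148.8, chr14:99298691-99315036, plus strand), known from the collecting duct epithelium in kidney, was the least abundant of the 10 genes, with 36 to 105 expected counts per mouse. CPM ranged from 1.78 to 2.67 in vehicle-treated mice, with a median of 2.13, and from 2.92 to 5.198 in SK-124-treated mice, with a median of 4.22. All treated mice lay above the controls, and the log2 fold change was 0.97 (SE 0.14, FDR = 7.83e-05, edgeR, quasi-likelihood test, Benjamini-Hochberg adjustment). Of 5 collecting duct markers 1 was higher (*Aqp2*, log2 fold change 0.75) and 1 lower (*Hsd11b2*, log2 fold change -0.35), and their summed level was 194 to 284 TPM in vehicle-treated and 158 to 310 TPM in SK-124-treated mice. The part of collecting duct cells in the level of *Klf5* was not tested.

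In the Sin3A-binding group, *Klf13* (ENSMUSG00000052040.10, chr7:63886351-63938915, minus strand) had a CPM of 26.6 to 39.9 in vehicle-treated mice, with a median of 32.2, and of 49.8 to 60.0 in SK-124-treated mice, with a median of 55.9. All treated mice lay above all controls. The log2 fold change was 0.77 (SE 0.09, FDR = 5.56e-06, same test). *Gm27252* and *E030018B13Rik* overlap *Klf13* on the opposite strand but had at most 15 and 1 expected counts in any mouse.

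*Klf11* (ENSMUSG00000020653.12, chr12:24651274-24662789, plus strand), known like *Klf10* as an early gene of transforming growth factor beta (TGF-beta) signaling, had a CPM of 4.66 to 8.84 in vehicle-treated mice, with a median of 6.13, and of 9.75 to 13.3 in SK-124-treated mice, with a median of 11.5. Vehicle-treated mouse 1 held the highest control value and lay below all treated mice. The log2 fold change was 0.83 (SE 0.12, FDR = 8.17e-05, edgeR, quasi-likelihood test, Benjamini-Hochberg adjustment). The gene length in the deposited tables, an average over transcripts weighted by their estimated use, ranged from 2420 to 4086 bases between mice. In TPM, which divides by a length, the groups overlapped (1.34 to 2.38 against 1.94 to 3.73), and limma on log2(TPM + 1) gave 0.35 (FDR = 0.0736).

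*Klf10* (ENSMUSG00000037465.10, chr15:38291463-38300706, minus strand) did not pass the test. Its CPM ranged from 5.65 to 13.4 in vehicle-treated mice, with a median of 9.23, and from 8.72 to 13.6 in SK-124-treated mice, with a median of 9.75. The groups largely overlapped, and the estimate of 0.14 (SE 0.16, FDR = 0.556, same test) had a 95% interval of 0.878-fold to 1.39-fold. Its deposited gene length varied between mice from 1435 to 2771 bases, and on the log2(TPM + 1) scale the sign turned to -0.063 (FDR = 0.824, limma).

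*Klf3* (ENSMUSG00000029178.14, chr5:64803388-64832901, plus strand), the CtBP-binding repressor, was the only one of the 10 genes with an estimate below 0. CPM ranged from 34.1 to 57.3 in vehicle-treated mice, with a median of 54.4, and from 40.7 to 51.8 in SK-124-treated mice, with a median of 45.03. Vehicle-treated mouse 3 held the lowest value of all 12 mice, while 5 of the 6 controls lay between 49.4 and 57.3. With all mice the log2 fold change was -0.16 (SE 0.10, FDR = 0.307, edgeR, quasi-likelihood test, Benjamini-Hochberg adjustment), with a 95% interval of 0.770-fold to 1.04-fold. Without vehicle-treated mouse 3 it was -0.25 (FDR = 0.00883, same test), so that this 1 library decided the call. On the opposite strand *Gm20033* overlaps *Klf3* with 10 to 25 expected counts per mouse, and use of strand in the counting is not given in the sources used here.

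Vehicle-treated mouse 5 held the highest CPM of its group in 6 of the 10 genes (*Klf2*, *Klf3*, *Klf4*, *Klf6*, *Klf10* and *Klf13*), and it was also the highest control in 4 of the 5 immediate-early genes called higher. SK-124-treated mouse 4 held the highest CPM of its group in 4 genes (*Klf2*, *Klf4*, *Klf5* and *Klf10*). With any 1 mouse left out, 8 KLF genes remained higher at an FDR under 0.05. SK-124-treated mice 1 to 3 alone and mice 4 to 6 alone, each against all controls, also gave 8 higher genes. For *Klf2* the log2 fold change was 0.81 in mice 1 to 3 and 1.16 in mice 4 to 6, for *Klf5* 0.75 and 1.16, and for *Klf15* 1.41 and 1.51, differences that were not tested.

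**Figure D2:**
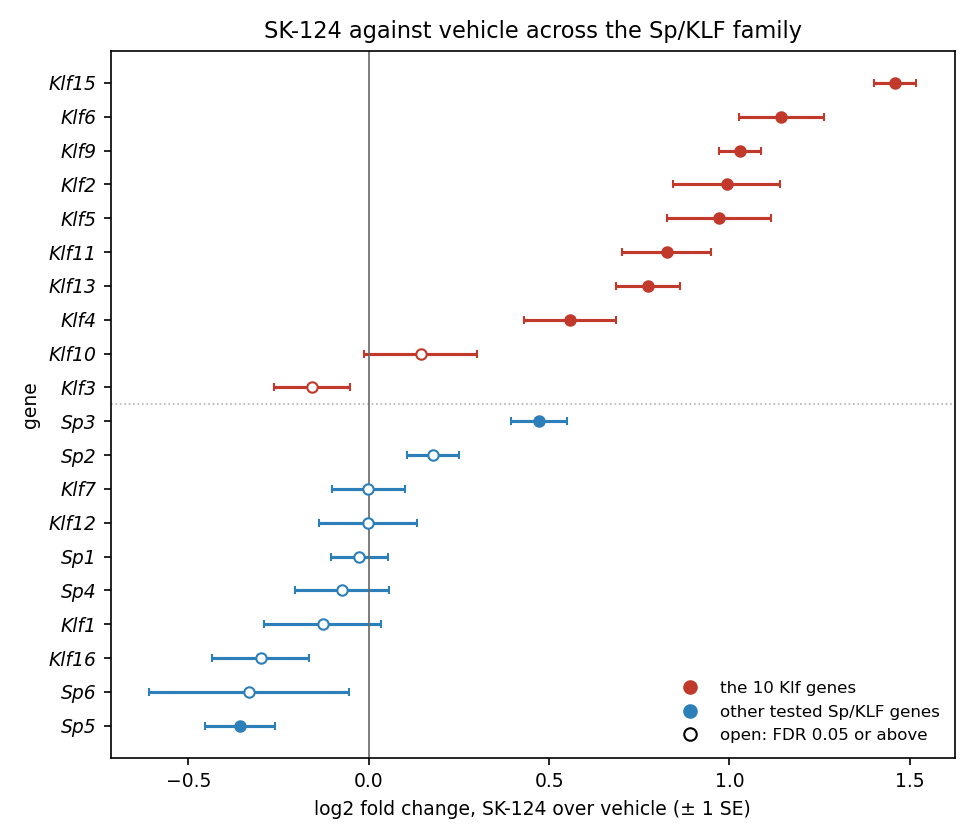
Log2 fold change (SK-124 over vehicle, edgeR) with ± 1 SE for the 10 KLF genes and the 10 other Sp/KLF genes that were tested, each part ordered by fold change, with filled circles for an FDR under 0.05. Of the lower part only *Sp3* and *Sp5* are filled, at 0.47 and -0.36.

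Of the 16 other genes of the Sp/KLF family, 10 were tested, 1 was higher and 1 was lower, with a median log2 fold change of -0.05. *Sp3*, a widely expressed GC-box factor, rose from 26.5 ± 3.36 to 36.8 ± 1.74 CPM (SD, n = 6, log2 fold change 0.47, FDR = 0.000223, edgeR), and *Sp5*, a known Wnt target, fell from 15.0 ± 1.67 to 11.8 ± 1.72 CPM (log2 fold change -0.36, FDR = 0.0117, same test). *Klf7* and *Klf12* had estimates of -0.0012 and -0.0024, and 4 genes of the family were at 0 in every mouse. The 10 KLF genes were chosen with results of these data known, so the contrast between both parts is given as counts with no test.

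By level per length, the controls were led by *Klf9* (38.6 ± 3.64 TPM, SD, n = 6), *Klf15* (26.8 ± 1.78 TPM) and *Klf3* (15.8 ± 3.52 TPM). *Klf2* (6.04 TPM), *Klf13* (5.56 TPM), *Klf10* (4.66 TPM) and *Klf6* (4.55 TPM) followed, and *Klf4* (2.11 TPM), *Klf11* (1.85 TPM) and *Klf5* (0.623 TPM) were lowest. Neighbours in this order were compared within mice by a two-sided exact sign-flip permutation test on log2 TPM, adjusted over 9 pairs. The order came from the means of the same mice, so this test is no independent evidence for it. *Klf2* and *Klf13* (adjusted p = 0.402), *Klf10* and *Klf6* (adjusted p = 1) and *Klf4* and *Klf11* (adjusted p = 0.422) did not differ beyond their spread by this exact permutation test. In the other 6 pairs the first gene was higher in 6 of 6 mice (adjusted p = 0.0469, from an exact p of 0.03125, the smallest that 6 mice allow). In SK-124-treated mice the order of means was the same except that *Klf6* (8.72 TPM) stood above *Klf10* (4.46 TPM).

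The summed level of the 10 genes was 88.5 to 119 TPM in vehicle-treated mice, with a mean of 106 ± 10.7 (SD, n = 6), and 164 to 216 TPM in SK-124-treated mice, with a mean of 190 ± 21.6 (SD, n = 6). The makeup of this sum shifted toward *Klf15*, which held 25.3% ± 1.89 of it in controls and 35.5% ± 2.05 in treated mice. The share of *Klf3* went from 14.6% ± 2.36 to 6.49% ± 0.472, while its own mean went from 15.8 to 12.3 TPM. *Klf3* was not called by edgeR (FDR = 0.307), and a share also falls when the sum rises. *Klf9* held 36.3% ± 2.28 and 37.3% ± 2.45, and its ranges overlapped.

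**Figure D3:**
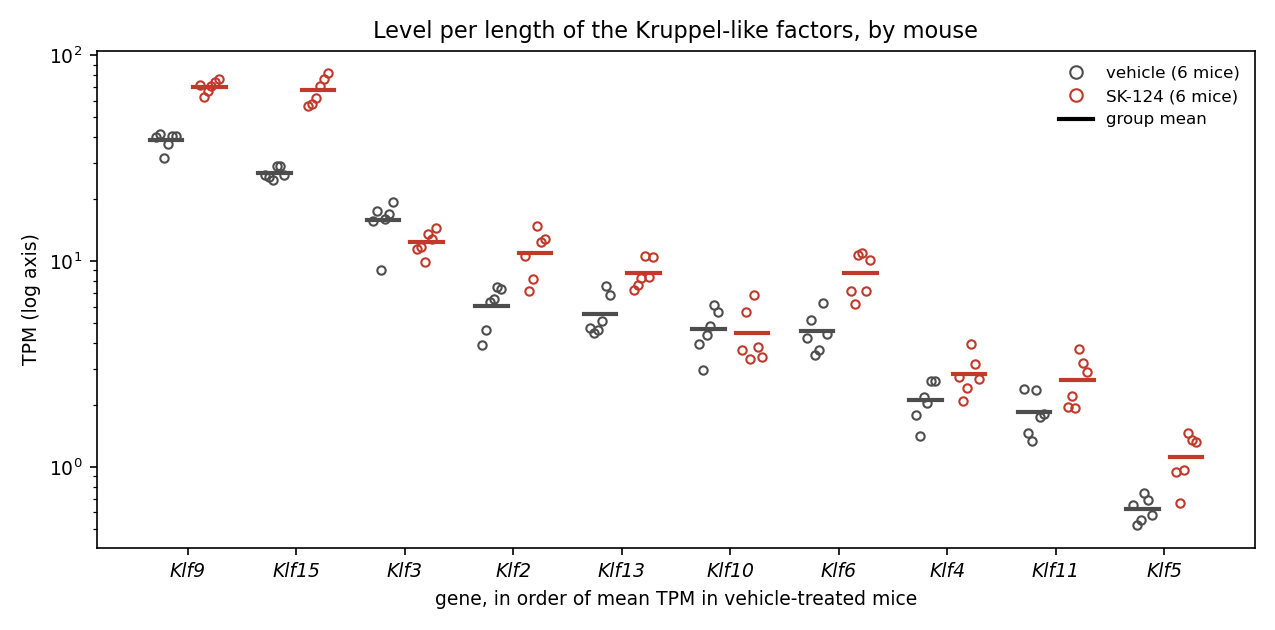
TPM on a log axis for the 10 KLF genes, in order of their mean in vehicle-treated mice, with 1 open circle per mouse and a bar at each group mean. *Klf9* and *Klf15* stand highest in both groups, and *Klf15* nearly reaches *Klf9* after SK-124 (67.6 against 70.5 TPM).

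Both genes of a ratio are read in the same library. Log2 ratios of TPM + 0.1 for 5 pairs of KLF genes were compared by a two-sided exact permutation test, adjusted over the 5. Every pair but *Klf15* and *Klf9* lies within the same group of factors, and that pair joins the most abundant of the 10 genes. The log2 ratio of *Klf15* to *Klf9* was -0.69 to -0.35 in vehicle-treated and -0.33 to 0.09 in SK-124-treated mice. It was higher in every treated mouse than in any control, by 0.45 on average (adjusted p = 0.00541, exact p = 0.00216, the smallest that 6 against 6 mice allow). The log2 ratio of *Klf2* to *Klf4*, both endothelial activators, was 1.08 to 1.64 in controls and 1.72 to 2.21 in treated mice, a difference of 0.43 with no overlap (adjusted p = 0.00541, same exact permutation test). The change in *Klf2* was thus larger than that in *Klf4* in these kidneys.

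The log2 ratio of *Klf10* to *Klf11* was 0.71 to 1.75 in controls and 0.23 to 1.32 in treated mice. The difference of -0.56 missed the threshold after adjustment (adjusted p = 0.0758, exact permutation test) and was -0.63 with no length scaling, in CPM (adjusted p = 0.00541, exact permutation test). For *Klf9* to *Klf13* the difference was 0.21 (adjusted p = 0.230), and for *Klf5* to *Klf6* it was -0.20 (adjusted p = 0.342), both by the same exact permutation test. In these last 2 pairs the groups overlapped.

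**Figure D4:**
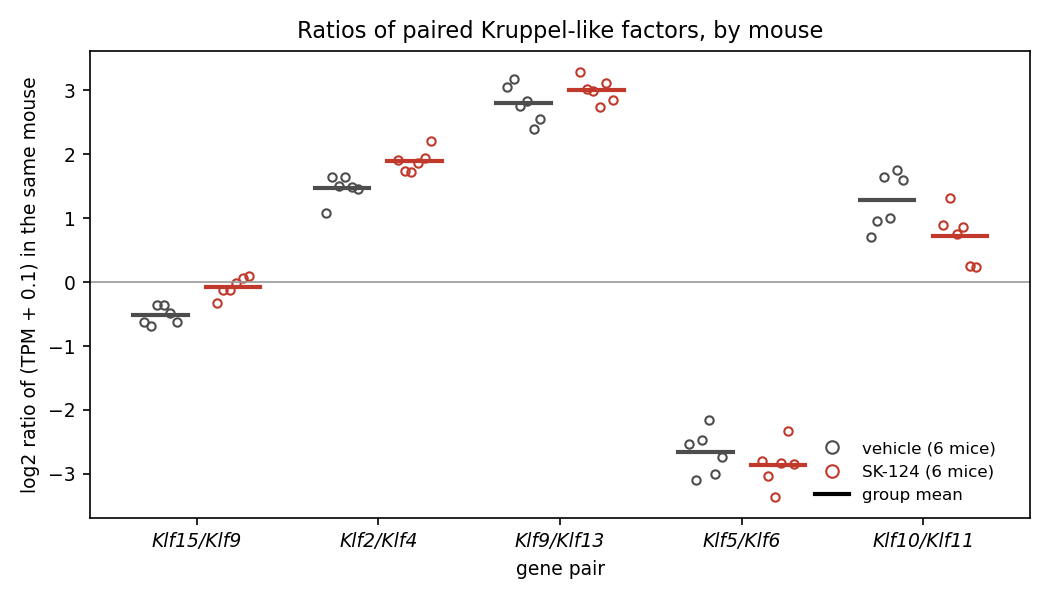
Log2 ratio of TPM + 0.1 between both genes of a pair in the same mouse, for 5 pairs, with 1 open circle per mouse (6 per group) and a bar at each group mean. The groups separate for *Klf15*/*Klf9* and *Klf2*/*Klf4* and overlap in the other 3 pairs.

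KLF2 and KLF4 are known in endothelium to raise *Nos3* (nitric oxide synthase), *Thbd* (thrombomodulin) and *S1pr1* (a sphingosine phosphate receptor) and to lower *Edn1* (endothelin) and *Vcam1* (a leukocyte adhesion molecule). All 5 genes of this list were higher in SK-124-treated mice, with a median log2 fold change of 0.87, against 10.8% of all tested genes higher. The list was chosen with earlier results of these data known, so its count is no independent evidence. *S1pr1* rose from 7.30 ± 1.24 to 19.6 ± 4.16 CPM (SD, n = 6, log2 fold change 1.42), *Thbd* from 10.9 ± 2.36 to 20.3 ± 3.81 CPM (0.89), *Edn1* from 1.35 ± 0.319 to 2.48 ± 0.307 CPM (0.87) and *Vcam1* from 4.93 ± 0.961 to 7.64 ± 1.85 CPM (0.63). *Nos3* was the closest to the threshold (0.39, FDR = 0.0376, edgeR) and lost its call under 12 of 23 alternatives, which included leaving out vehicle-treated mouse 1, 2 or 6 or SK-124-treated mouse 1, 4, 5 or 6, and limma on log2(TPM + 1) called 3 of the 5. *Edn1* and *Vcam1*, the genes of this list that KLF2 and KLF4 are known to lower in endothelium, were higher by edgeR in these whole kidneys. The part of KLF2 and KLF4 in the levels of the 5 genes was not tested.

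None of the defining markers of endothelial cells was called higher. Of 9 markers 0 were higher by edgeR (1 at an unadjusted p under 0.05, 0 by DESeq2) and 3 were lower (*Kdr* -0.85, *Tek* -0.66 and *Eng* -0.28 on the log2 scale, with *Eng* not called under 12 of 23 alternatives), with a median log2 fold change of -0.24. Calls of *Eng* were lost without any 1 of vehicle-treated mice 3 to 6 or SK-124-treated mice 1, 2, 3 and 5, and 1 marker was higher without SK-124-treated mouse 3. The summed level of the 9 markers was 102 to 141 TPM in vehicle-treated and 68.7 to 126 TPM in SK-124-treated mice. *Pecam1* (0.07, FDR = 0.697) and *Cdh5* (0.29, FDR = 0.0978) did not pass edgeR's quasi-likelihood test. The part of the number of endothelial cells in the levels of *Klf2*, *Klf4* and the 5 genes was not tested.

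**Figure D5:**
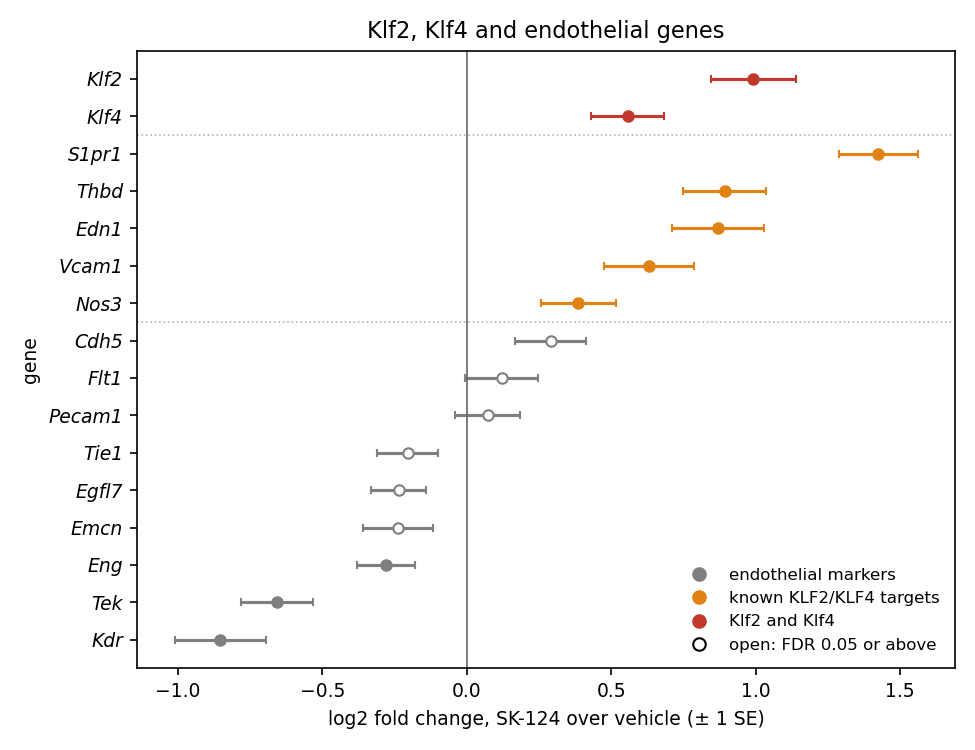
Log2 fold change (SK-124 over vehicle, edgeR) with ± 1 SE for *Klf2* and *Klf4*, the 5 genes known to be controlled by them in endothelium and 9 endothelial markers, with filled circles for an FDR under 0.05. The upper 7 genes all lie above 0, and the 3 filled markers lie below 0.

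Of the genes that feed into *Klf2* and *Klf4* through the kinase ERK5, MEF2 factors and class IIa histone deacetylases, 8 of 9 were tested, 2 were higher and 4 lower, with a median log2 fold change of -0.08. *Mef2d*, a MEF2 factor, rose from 55.9 ± 4.65 to 80.2 ± 6.16 CPM (log2 fold change 0.52), while *Mef2c* fell from 4.86 ± 0.918 to 2.79 ± 0.437 CPM (-0.80). *Hdac7*, a class IIa deacetylase of endothelium, fell by 0.58 on the log2 scale, and *Hdac4* rose by 0.37. By limma on log2(TPM + 1), 0 of these genes were higher (0 also at an unadjusted p under 0.05) and 4 were lower, so that *Mef2d* and *Hdac4* lost their calls. *Mapk7*, which encodes ERK5, fell from 8.77 ± 0.799 to 6.90 ± 0.915 CPM with overlapping groups (log2 fold change -0.34, FDR = 0.0113, edgeR). *Map2k5*, which encodes the kinase upstream of ERK5, had an estimate of 0.04 (FDR = 0.653, same test).

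Of 10 cofactors of KLF proteins, 0 were higher by edgeR (1 at an unadjusted p under 0.05, 0 by DESeq2) and 2 were lower, *Kat2a* (an acetyltransferase, log2 fold change -0.21) and *Hdac1* (the deacetylase of Sin3A complexes, -0.16), and the others lay between -0.19 and 0.21. Over all tested genes 13.5% were lower, and the count of lower cofactors ran from 0 to 4 under the alternatives, with *Hdac1* losing its call in 12 of 23. Without vehicle-treated mouse 1, 3, 4 or 5 or SK-124-treated mouse 2, 3, 4 or 6 the count was 1, and without SK-124-treated mouse 4, 1 cofactor was higher. *Sin3a* had an estimate of 0.01 (FDR = 0.971), and *Ctbp2*, a partner of KLF3, one of -0.19 (FDR = 0.0523, edgeR's quasi-likelihood test). Of 5 ubiquitin ligases known to act on KLF proteins, only *Fbxo32* passed the test, at 2.51 ± 0.539 CPM in controls and 3.68 ± 0.533 CPM in treated mice (log2 fold change 0.55), and it lost its call in 5 of 23 alternatives, limma on TPM among them.

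*Klf15* is known to raise genes of amino acid breakdown in liver and muscle. Of 16 genes of branched-chain amino acid breakdown, 1 was higher (*Auh*, log2 fold change 0.15) and 0 were lower by edgeR (0 also at an unadjusted p under 0.05 and by DESeq2), with a median log2 fold change of 0.10. At an unadjusted p under 0.05, 4 of the 16 were higher by edgeR, 9 by DESeq2 and 0 by limma on log2(TPM + 1). The edgeR estimates ran from -0.03 to 0.15. *Auh* lost its call in 15 of 23 alternatives, and the count of higher genes ran from 0 (without vehicle-treated mouse 2, 4, 5 or 6 or SK-124-treated mouse 3, 4 or 6, among others) to 2 (DESeq2, or without vehicle-treated mouse 3 or SK-124-treated mouse 2, among others). Of 4 further genes linked to KLF15, 3 were tested and 2 were higher, *Prodh* (proline dehydrogenase, 134 ± 9.44 to 180 ± 11.0 CPM, log2 fold change 0.43) and *Gpt* (alanine aminotransferase, 7.12 ± 1.12 to 9.36 ± 2.00 CPM, 0.40). The call of *Gpt* was lost in 12 of 23 alternatives, which included library totals, limma on TPM and leaving out any 1 of vehicle-treated mice 2, 4, 5 and 6 or SK-124-treated mice 1, 3 and 4. *Bcat2*, the aminotransferase of branched-chain amino acids, had an estimate of -0.03 (FDR = 0.819, edgeR). The log2 fold change of *Klf15* was 1.46, and those in the branched-chain list were at most 0.15. The part of *Klf15* in the levels of these genes was not tested.

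*Klf10* and *Klf11* respond to TGF-beta. Of 11 genes of that pathway 1 was higher and 5 lower, with a median log2 fold change of -0.06. *Tgfb2*, a ligand, fell from 1.95 ± 0.457 to 0.698 ± 0.0925 CPM (log2 fold change -1.48), *Smad7*, the inhibitory mediator, fell by 0.60, *Smad3* by 0.36 and the receptor gene *Tgfbr2* by 0.34 on the log2 scale. The 1 higher gene, *Smad4* (0.29), lost its call in 9 of 23 alternatives, among them leaving out vehicle-treated mouse 1 or SK-124-treated mouse 3, 4 or 6. *Tgfb1* had an estimate of 0.16 (FDR = 0.314, edgeR).

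*Klf9*, *Klf10* and *Klf15* are known outputs of the circadian clock. Of 12 clock genes 3 were higher and 2 lower, with a median log2 fold change of 0.12. *Per1*, which is also an acute target of CREB and of the glucocorticoid receptor, rose from 17.1 ± 6.25 to 91.7 ± 13.5 CPM (log2 fold change 2.42), and *Cry1* rose by 0.62. *Dbp*, an E-box output gene, fell from 21.9 ± 10.1 to 6.42 ± 2.45 CPM (-1.77), and *Per3* fell by 0.71. Without vehicle-treated mouse 5, 5 clock genes were higher and 2 lower.

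*Klf9*, *Klf13* and *Klf15* have known binding sites or responses to the glucocorticoid receptor, and 8 of 8 listed glucocorticoid-responsive genes were higher, with log2 fold changes of 1.33 to 5.09. *Zbtb16* rose from 2.19 ± 0.869 to 74.5 ± 9.16 CPM (log2 fold change 5.09), *Ddit4* by 4.15, *Cebpd* by 3.76 and *Tsc22d3* by 2.95 on the log2 scale. This list was written after such genes had been seen to move in these mice, so its count is no independent evidence. Of 10 immediate-early genes, the class in which *Klf4*, *Klf6* and *Klf10* are often counted, 5 were higher and 0 lower by edgeR (0 also at an unadjusted p under 0.05 and by DESeq2), and 9 were higher without vehicle-treated mouse 5. *Atf3* rose from 0.442 ± 0.177 to 7.60 ± 5.87 CPM (log2 fold change 4.09), *Dusp1* by 2.18, *Zfp36* by 1.71 and *Btg2* by 1.61, while *Fos* (0.13, FDR = 0.925) and *Egr1* (-0.65, FDR = 0.610) did not pass edgeR's test. Vehicle-treated mouse 5 decided both: it had 27.1 CPM of *Fos* against 0.496 to 2.12 CPM in the other controls and 2.43 to 12.1 CPM in treated mice, and 215 CPM of *Egr1* against 5.80 to 18.8 and 9.61 to 74.6 CPM. Without it the log2 fold changes were 2.67 for *Fos* (FDR = 0.000362) and 1.504 for *Egr1* (FDR = 0.0314, edgeR).

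By the root mean square distance of log2(CPM + 0.5) over the 12 mice, each as difference from its control mean, the genes most like *Klf15* among 13007 compared were *Usp2* (distance 0.12), *Ip6k2* (0.12) and *Trp53inp1* (0.13). *Usp2* had 62.7 to 77.7 CPM in controls and 155 to 199 CPM in treated mice, close to the values of *Klf15* itself. The genes most like *Klf3* were *Prrc2b* (distance 0.04), *Sox6* (0.07) and *Wdfy3* (0.08). The distance used all mice, so the choice of these genes favors a low value in vehicle-treated mouse 3, where *Prrc2b* had 65.5 CPM against at least 91.2 CPM in the other controls.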

How the data were processed

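RNA-Seq of 12 whole kidneys (BGISEQ500, 1 library per mouse) was deposited as RSEM gene tables. The submitters' processing notes name FastQC, STAR 2.7.2b, RSEM 1.3.0, DESeq2 and mm10. The authors deposited expected counts (estimated reads per gene, not normalized) and TPM, which RSEM scaled to effective gene length and library total. FPKM stood in the same tables and was not used here. Of 55401 identifiers 54349 matched GENCODE M21 with their version.

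Expected counts were rounded, filtered with filterByExpr, scaled with TMM and tested across all genes with edgeR 4.0.16 (quasi-likelihood, treatment as the only term, R 4.3.3). The biological coefficient of variation was 0.101. SE was the absolute fold change on the log2 scale over the root of F. Ratios and level orders used two-sided exact permutation tests (scipy 1.17.1). The test was tested on simulated data. Promoters came from RefSeq.

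The genes named are the 10 KLF genes, called Sp/KLF genes, up to 4 called genes per list with the largest fold change, the 3 genes most like *Klf15* and *Klf3*, and overlapping genes. Named outside this rule, after their values were seen, were *Klf7*, *Klf12*, *Mapk7*, *Map2k5*, *Sin3a*, *Ctbp2*, *Bcat2*, *Tgfb1*, *Smad4*, *Nos3*, *Pecam1*, *Cdh5*, *Cyp11b2*, *Fos* and *Egr1*. The KLF genes and all lists were chosen with earlier results of these data known. Replicate numbers belong to different mice and do not pair them. No pair of mice of a group looked like 1 library under both numbers (smallest chi-square per degree of freedom 4.69 over 30 pairs). Alternatives were DESeq2 1.42.0, RLE, library totals, other filters, unrounded counts, limma 3.58.1 on TPM, the replicate block, each mouse left out and SK-124-treated mice 1 to 3 or 4 to 6 only. The result of 1 marker list is not reported here.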

Additional observations from a re-analysis of the deposited data

Results flagged for a closer look

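Among 30 sets of 6 values (CPM of each KLF gene and the 5 log2 ratios, in each group), 2 held a mouse far from the others, where chance gives about 1.5. *Klf3* was 34.1 CPM in vehicle-treated mouse 3, against 49.4 to 57.3 CPM in the other controls. The log2 ratio of *Klf2* to *Klf4* was 1.08 in vehicle-treated mouse 1, against 1.46 to 1.64 in the other controls.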

How the results depend on the processing

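Of 230 fold changes of the 10 KLF genes under 23 alternatives, 223 kept their direction and their side of the threshold. With limma on log2(TPM + 1) and log2(TPM + 0.1), *Klf4* (0.30 and 0.41) and *Klf11* (0.35 and 0.48) lost their calls, which left 6 higher KLF genes, and *Klf10* turned to -0.063 and -0.077. These settings also moved the median of all tested genes to -0.11 and -0.14 and the calls over all genes to 500 higher and 2130 lower, and 498 and 2118. Scaling by library totals gave 777 higher and 3058 lower genes overall and 8 higher KLF genes. Leaving out each mouse gave 8 higher KLF genes each time, 0 to 1 lower (*Klf3*, without vehicle-treated mouse 3), and 1 to 2 higher and 1 to 2 lower among the other Sp/KLF genes. The replicate block gave 8 higher KLF genes and 2 higher other Sp/KLF genes, and changed no call of the 10. The numbers do not pair the mice, with correlations of same-numbered mice from -0.131 to 0.217. With the block's exact sign-flip permutation test the differences of 0.45 for *Klf15*/*Klf9* and 0.43 for *Klf2*/*Klf4* had an adjusted p of 0.0781. Both already had the smallest exact p that 6 differences allow, so this adjusted p shows a limit of the test and no smaller difference. With a pseudocount of 1 TPM, *Klf5*/*Klf6* differed by -0.43 (adjusted p = 0.0325, exact permutation test), and in CPM *Klf10*/*Klf11* differed by -0.63. The list of endothelial genes known to be controlled by KLF2 and KLF4 had 3 to 5 higher genes under all alternatives. Without vehicle-treated mouse 5, higher immediate-early genes went from 5 to 9 and higher clock genes from 3 to 5, and the lists with 1 or 2 calls changed as given beside them. The cause of these differences was not tested. Depth limits *Klf5* most, at 36 to 105 expected counts per mouse.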
